A study of Mus musculus with 18 samples.

Results

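Of the 20298 genes measured in mouse bone marrow monocytes, 212 were higher after GM-CSF culture by at least 2 on the log2 scale in both genotypes and on both days, and 43 of these 212 (20.3%, or 0.212% of all genes) had mean levels in WT and DKI cells that differed by less than 0.5 on both days. These 43 genes, the genes induced to similar mean levels in WT and DKI cells, are described here. The values are log2(RPKM + 1), where RPKM is the read count of a gene scaled by its transcript length and by the reads of the library, and the group means of 3 libraries were used. A gene was included when day 3 minus day 0 and day 6 minus day 0 were each at least 2 in WT and in DKI cells, and when the absolute difference between DKI and WT was below 0.5 on day 3 and on day 6. The genes were thus chosen by their measured increase over day 0 and by the small DKI minus WT difference, and both are given as descriptions without a test. The increase alone was met by 2.04% of the 10417 expressed genes, and the small difference by 68.3% of the fitted genes on day 3 and 65.8% on day 6.

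The cells were Ly6C+ CCR2+ monocytes of C57BL/6 background from WT mice and from DKI mice, in which both STAT5 proteins carry N-domain mutations, so that dimers form but tetramers do not. Monocytes were taken untreated on day 0, or cultured in GM-CSF at 20 ng/mL until day 3 or day 6 as monocyte-derived cells (MDCs), which gave 6 groups of 3 libraries. All MDCs had received GM-CSF, and cells cultured without it were not analysed here, so that the effect of GM-CSF and the effect of culture cannot be told apart. The monocytes were enriched from marrow by negative selection and could hold other cells, and in such bulk RNA a change in the number of cells of a type and a change in RNA per cell cannot be told apart.

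GM-CSF binds a receptor made of a specific alpha chain and the common beta chain, which activates JAK2 and, through it, STAT5. STAT5 dimers bind the palindromic GAS motif, and neighbouring dimers can join through their N-domains into tetramers on paired or weaker motifs. The same receptor also activates the ERK and PI3K pathways, whose nuclear targets include ETS family factors such as Etv5.

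The 18 libraries held an estimated 29.5 to 43.2 M reads each (median, 36.4 M), from the RPKM that 1 read was worth. The labels give liver as the tissue, whereas the study isolated the cells from bone marrow, and the summed level of 5 hepatocyte markers was at most 0.0470 RPKM in any library. The summed level of 6 monocyte markers was 2384 to 3372 RPKM on day 0 and 308 to 2405 RPKM in MDCs. In MDCs, 5 dendritic cell markers summed to 926 to 1405 RPKM in WT and 51.1 to 413 RPKM in DKI libraries, and 5 macrophage markers to 367 to 823 RPKM in WT and 1543 to 2183 RPKM in DKI libraries, so that the genotypes differed in cell type markers while the 43 genes did not differ beyond the limit; the part of this in their levels was not tested. The DKI library numbered 1 stood apart on day 3, with a mean correlation to its group of 0.875, against 0.914 to 0.959 for the other 5 libraries of that day. Its Ly6c2 level, a marker of undifferentiated monocytes, was 775 RPKM, against 49.5 and 73.8 RPKM in the other DKI libraries. The summed level of 24 type I interferon response genes was 7697 RPKM in that library and 3956 RPKM in the DKI library numbered 1 of day 6, against 231 to 1182 RPKM in the other 10 MDC libraries. The 4 MDC libraries numbered 1 also carried an earlier year in their names than the other 14 libraries, and counts without these libraries are given beside the results. The mean level of Stat5a was 14.5 ± 2.21 (WT) and 13.7 ± 2.08 RPKM (DKI) on day 0 and 42.6 ± 14.1 (WT) and 12.4 ± 2.67 RPKM (DKI) on day 3 (SD, n = 3), and since the knock-in exchanges codons within the transcript, gene levels do not check the genotype.

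Promoter sequence was available in RefSeq (GRCm38.p6, the assembly of mm10) for 34 of the 43 genes, in 46 windows, and the 250 bases before each start site were searched on both strands. The 6 stretches of 80 bases shown here hold a match to 1 of 2 motifs, in capitals, and overlap no annotated exon. Ahrr and Nrp2 are shown because they are among the genes that kept their place in the group most often, and the others as examples of an ETS motif. Which factors bind these stretches, and any link to ERK signaling, was not tested.

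Ahrr (chr13:74292332-74292411, minus strand): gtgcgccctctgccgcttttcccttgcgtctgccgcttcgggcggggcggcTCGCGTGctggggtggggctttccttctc
Nrp2 (chr1:62703118-62703197, plus strand): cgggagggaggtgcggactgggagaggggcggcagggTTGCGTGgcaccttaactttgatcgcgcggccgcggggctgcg
Ptgs1 (chr2:36230346-36230425, plus strand): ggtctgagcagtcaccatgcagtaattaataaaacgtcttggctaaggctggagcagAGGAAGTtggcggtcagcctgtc
Fhl3 (chr4:124700619-124700698, plus strand): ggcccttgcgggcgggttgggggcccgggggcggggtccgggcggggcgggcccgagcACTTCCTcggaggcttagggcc
Anxa4 (chr6:86775184-86775263, minus strand): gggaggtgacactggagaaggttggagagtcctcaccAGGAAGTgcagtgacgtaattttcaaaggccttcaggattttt
Fcrlb (chr1:170913027-170913106, minus strand): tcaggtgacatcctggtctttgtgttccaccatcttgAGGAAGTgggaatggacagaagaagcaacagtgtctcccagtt

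In Ahrr and Nrp2 the capitals mark the core of the xenobiotic response element (TNGCGTG, or its complement), which the aryl hydrocarbon receptor binds, and in the other 4 genes an ETS motif (AGGAAGT, or its complement). The windows of Ptgs1, Fhl3, Anxa4 and Fcrlb belong to start sites inside the annotated span of the gene. The xenobiotic response element was found in 3 of the 34 genes (8.82%; Ahrr, Nrp2 and Nek6), against 6.05% of the 15376 genes with a window, 4.76% of the genes induced lower in DKI and 6.06% of those induced higher. The ETS motif was found in 6 of the 34 genes (17.6%; also in Fcrls and Rab13), against 8.48% of all genes, 15.9% of the 63 matched genes that were induced lower in DKI and 21.2% of the 33 matched genes that were induced higher. The GAS motif (TTCNNNGAA) was found in 1 of the 34 genes (2.94%), Rab19, against 12 of 63 genes induced lower in DKI (19.0%), 5 of 33 induced higher (15.2%) and 7.79% of all genes. These are letter matches within a short window and were not tested as binding sites.

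All 12 MDC libraries lay above all 6 day 0 libraries for 42 of the 43 genes, and 11.9% of the 10417 expressed genes did so in the whole table. The exception was Stfa2. Since the rule asks for a large increase in every MDC group, this separation was largely built in. The median increase over day 0 was 3.16 (WT) and 2.98 (DKI) on day 3 and 2.96 (WT) and 3.11 (DKI) on day 6, where the median over all genes was 0. Levels in monocytes were low, with 20 genes below 1 RPKM in both genotypes and 15 above 2 RPKM in at least one. In MDCs, the mean over the 12 libraries ran from 5.20 RPKM for Hbegf to 459.9 RPKM for Anxa4 (median, 19.5 RPKM), with 6 genes above 100 RPKM and 9 below 10 RPKM.

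**Figure D1:**
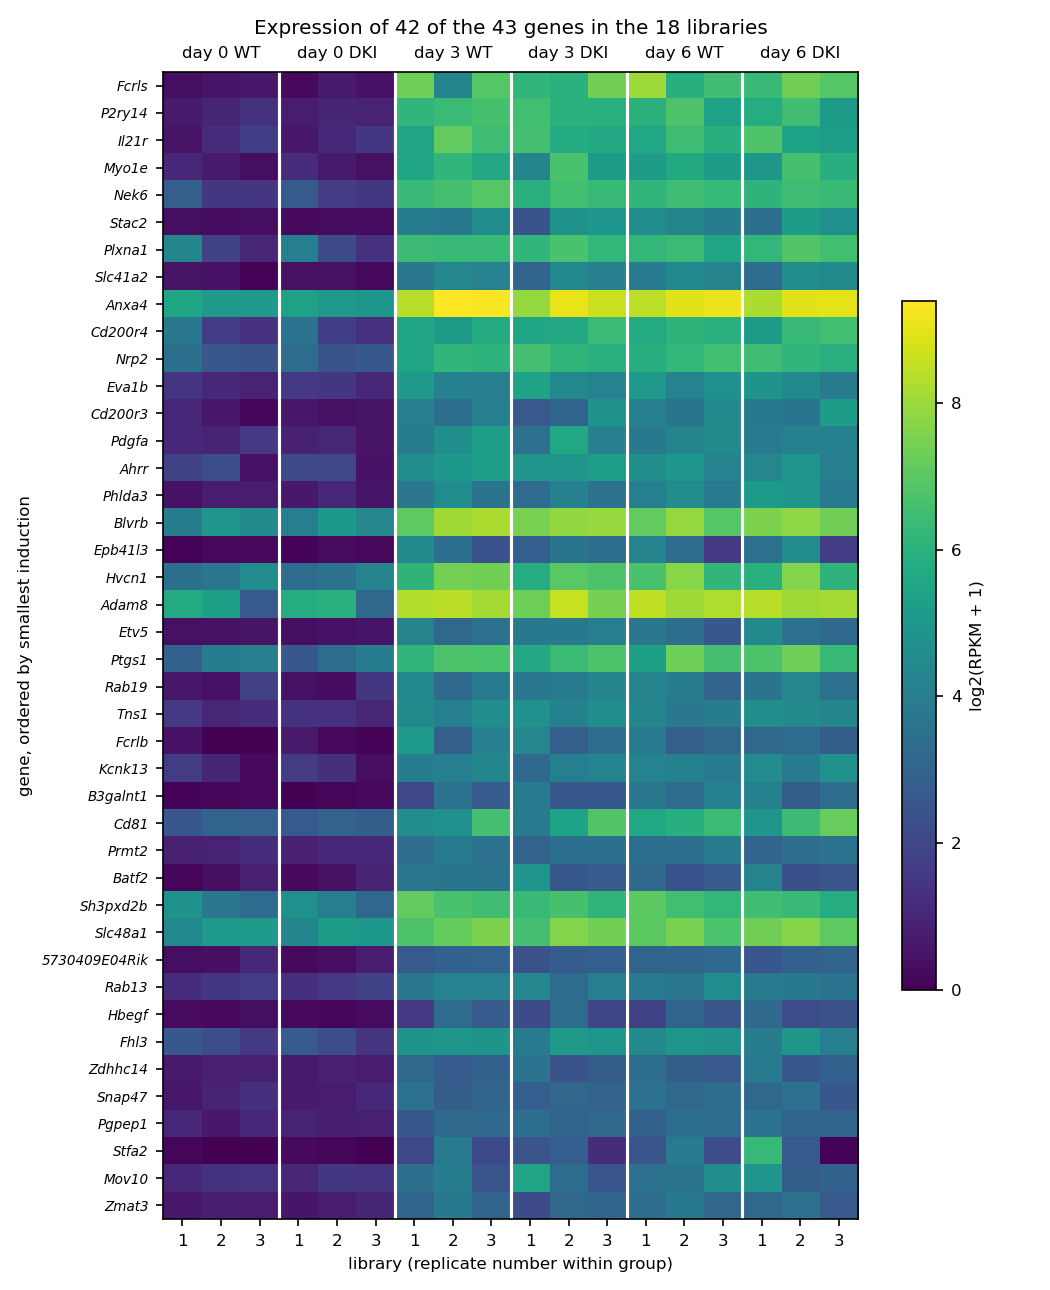
Heatmap of log2(RPKM + 1) for 42 of the 43 genes (rows, ordered by their smallest increase over day 0) in the 18 libraries (columns, in 6 groups of 3, numbered 1 to 3). The 12 columns of days 3 and 6 are lighter than the 6 of day 0 in every row except for 1 library of Stfa2, and single libraries of a group differ visibly, for example for Mov10 and Batf2.

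The 3 largest increases were those of immune cell surface receptors. Fcrls (chr3:87250736-87263765), a scavenger-type member of the Fc receptor-like family known as a marker of mouse microglia, was at 0.263, 0.451 and 0.555 RPKM across the WT and 0.181, 0.594 and 0.374 RPKM across the DKI libraries of day 0. It reached 160.0, 18.5 and 118 RPKM across the WT and 71.4, 62.9 and 167 RPKM across the DKI libraries of day 3. On day 6 it was at 259, 58.9 and 90.1 RPKM across the WT and 81.1, 162 and 121 RPKM across the DKI libraries. Every MDC library was thus far above every monocyte library, with increases of 5.67 to 6.42 in the 4 comparisons, but the WT libraries of day 3 alone spread from 18.5 to 160.0 RPKM. The DKI minus WT difference was 0.35 ± 0.83 on day 3 and 0.07 ± 0.56 on day 6 (SE, n = 3 per group).

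P2ry14 (chr3:59114623-59153492), a G protein-coupled receptor for UDP-glucose and related sugars, was at 0.609, 0.946 and 1.59 RPKM across the WT and 0.687, 0.941 and 0.866 RPKM across the DKI libraries of day 0. Its levels were 72.1, 84.3 and 100.3 RPKM across the WT and 92.5, 63.5 and 60.8 RPKM across the DKI libraries of day 3. The day 6 values were 65.1, 109 and 40.6 RPKM across the WT and 55.5, 91 and 33.3 RPKM across the DKI libraries. The WT and DKI ranges overlapped on both days, and the differences were -0.25 ± 0.23 on day 3 and -0.25 ± 0.47 on day 6 (SE, n = 3 per group). Il21r (chr7:125603252-125634397), which pairs with the common gamma chain to bind IL-21, was at 0.402, 1.31 and 2.31 RPKM across the WT and 0.533, 1.07 and 1.77 RPKM across the DKI libraries of day 0 and was higher by 4.79 to 5.23 in MDCs. It was at 44.1, 139.8 and 87.9 RPKM across the WT and 94.1, 53.2 and 50.3 RPKM across the DKI libraries of day 3. On day 6, Il21r was at 48.2, 89 and 60.2 RPKM across the WT and 110.2, 42.4 and 37.3 RPKM across the DKI libraries. The highest DKI value was that of library 1 on both days, and without these 2 libraries the difference for Il21r moved to -0.65 on day 3 (from -0.36) and to -0.67 on day 6 (from -0.18).

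A pair of nearby genes of the CD200 receptor family, Cd200r4 (chr16:44811650-44839150) and Cd200r3 (chr16:44943596-45058365), whose products signal through the adaptor DAP12, were both included. Cd200r4 had means of 5.47 RPKM (WT) and 4.9 RPKM (DKI) on day 0 and 44.2 to 68.7 RPKM over the 4 MDC groups. Cd200r3 was lower throughout, with 0.565 RPKM (WT) and 0.425 RPKM (DKI) on day 0 and 13.1 to 19.5 RPKM over the 4 MDC groups. Reads shared between the copies of this family could be split by the counting, so that the level of each is uncertain. Fcrlb, an intracellular relative of the Fc receptors, had 0.158 RPKM (WT) and 0.268 RPKM (DKI) on day 0 and 7.41 to 17.9 RPKM over the 4 MDC groups. Cd81, a tetraspanin that organises membrane receptors, had 6.24 RPKM (WT) and 6.09 RPKM (DKI) on day 0 and 48 to 87.7 RPKM over the 4 MDC groups. Cd81 was uneven among libraries, with 23.9, 25.3 and 94.9 RPKM across the WT and 13.3, 42.4 and 113 RPKM across the DKI libraries of day 3. Its day 6 values were 48.7, 60.2 and 84.4 RPKM across the WT and 29, 85.6 and 149 RPKM across the DKI libraries, and the lowest value in each DKI group of MDCs was that of library 1. Without these libraries the difference for Cd81 moved to 0.83 on day 3 (from 0.06) and to 0.83 on day 6 (from 0.19).

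Genes of axon guidance receptors formed a pair. Plxna1 (chr6:89316313-89362613) encodes plexin A1, a semaphorin receptor that dendritic cells also use, and Nrp2 (chr1:62703317-62818692) encodes neuropilin 2, a coreceptor for class 3 semaphorins and VEGF. Plxna1 was at 18.9, 2.49 and 1.01 RPKM across the WT and 15.7, 3.59 and 1.5 RPKM across the DKI libraries of day 0. It was at 86.6, 79.1 and 82.3 RPKM across the WT and 71.8, 103 and 72.5 RPKM across the DKI libraries of day 3. The day 6 values were 73.9, 83.8 and 44.3 RPKM across the WT and 73.9, 113 and 93 RPKM across the DKI libraries. The monocyte libraries numbered 1 were the highest of day 0 in both genotypes, and the day 6 difference of 0.49 was just inside the limit. Nrp2 was at 9.995, 4.9 and 4.32 RPKM across the WT and 8.96, 4.23 and 4.84 RPKM across the DKI libraries of day 0. In MDCs, Nrp2 was at 45.9, 71 and 66.3 RPKM across the WT and 94.8, 69.7 and 60.5 RPKM across the DKI libraries of day 3. It was at 60.4, 72.6 and 93.3 RPKM across the WT and 91.1, 72.1 and 61.6 RPKM across the DKI libraries of day 6. The WT and DKI values of Nrp2 overlapped on both days, with differences of 0.29 ± 0.25 on day 3 and -0.01 ± 0.23 on day 6 (SE, n = 3 per group), and Nrp2 remained in the group in each of 23 other settings (18 with a library left out, and other pseudocounts, scalings and group medians). It was not among the genes chosen when replicate number 3 was left out of all groups. Of the 20 genes of a list of semaphorins, plexins and guidance receptors, the third induced gene was Sema6d, which was lower in DKI cells on both days.

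From a list of integrin, adhesion and cytoskeleton genes, 4 of the 36 in the table were induced, and 2 of these, Cd81 and Myo1e, were members. The other genes described with Myo1e here were put together by role after their values were seen. Anxa4 (chr6:86736840-86793634), a calcium-dependent phospholipid-binding protein, was the most abundant of the 43 genes. It was at 45.5, 31.6 and 31.7 RPKM across the WT and 40.3, 33.1 and 29.8 RPKM across the DKI libraries of day 0. Its values were 332, 669 and 638 RPKM across the WT and 236, 535 and 399 RPKM across the DKI libraries of day 3. On day 6 they were 347, 498 and 556 RPKM across the WT and 299, 499.6 and 508 RPKM across the DKI libraries. Library 1 was the lowest of each MDC group, in WT as in DKI. Myo1e (chr9:70207350-70400067), a class I myosin that links membranes to actin, was at 1.06, 0.602 and 0.267 RPKM across the WT and 1.27, 0.619 and 0.342 RPKM across the DKI libraries of day 0. It was at 45.6, 71.6 and 49.5 RPKM across the WT and 18.3, 104 and 33.3 RPKM across the DKI libraries of day 3. On day 6, Myo1e was at 35.3, 50.9 and 35.4 RPKM across the WT and 30.2, 98.8 and 59.7 RPKM across the DKI libraries. The DKI libraries of Myo1e spread more widely than the WT libraries, and without the DKI libraries numbered 1 the difference moved to 0.11 on day 3 (from -0.43) and to 0.93 on day 6 (from 0.49).

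Adam8, a membrane metalloprotease, had means of 32.2 RPKM (WT) and 41.5 RPKM (DKI) on day 0 and 242 to 310.3 RPKM over the 4 MDC groups. Sh3pxd2b, a scaffold protein of podosomes, had 15.8 RPKM (WT) and 16.1 RPKM (DKI) on day 0 and 75.4 to 111 RPKM over the 4 MDC groups, and its DKI library was below the WT library of the same number on both days for all 3 numbers. Tns1, a tensin that ties integrins to actin, had 1.43 RPKM (WT) and 1.38 RPKM (DKI) on day 0 and 15.2 to 21.9 RPKM over the 4 MDC groups. For Tns1 the DKI library was above its WT counterpart for all 3 numbers on both days, with a day 6 difference of 0.44 (95% interval, -0.01 to 0.89). Fhl3, a LIM domain protein that binds actin and transcription factors, had 3.54 RPKM (WT) and 3.67 RPKM (DKI) on day 0 and 19.9 to 28.4 RPKM over the 4 MDC groups. Epb41l3, a band 4.1 protein that anchors membrane proteins to the cytoskeleton, had 0.137 RPKM (WT) and 0.139 RPKM (DKI) on day 0 and 9 to 11.7 RPKM over the 4 MDC groups. The day 6 values of Epb41l3 ran from 1.93 to 17.4 RPKM in WT and from 2.29 to 22.3 RPKM in DKI cells, and its SE of the difference was the second largest of the 43 genes after that of Stfa2.

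**Figure D2:**
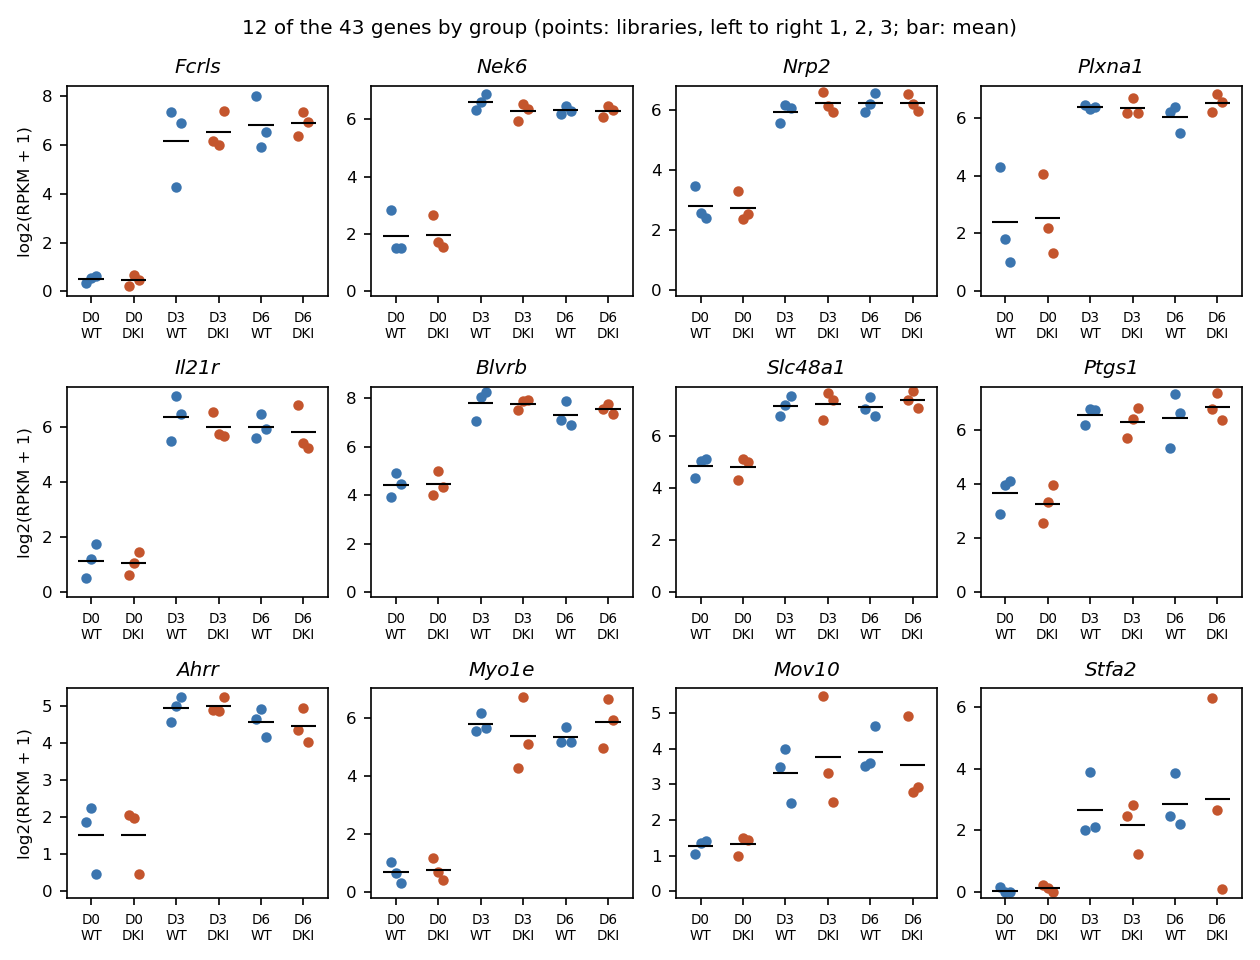
Levels of 12 of the 43 genes, as log2(RPKM + 1), in each of the 6 groups (D0, D3 and D6, WT in blue and DKI in orange). Each point is a library, in the order 1, 2 and 3, and each bar is a mean of 3. Nek6, Nrp2 and Slc48a1 show overlapping groups in MDCs, although the DKI libraries of Slc48a1 spread from 95.3 to 199.6 RPKM on day 3. In Mov10, 1 DKI library per day lies far above the other 2, and in Stfa2 1 does so on day 6.

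Both induced genes of the iron and heme list were included. Blvrb (chr7:27447978-27465981) encodes biliverdin reductase B, which acts late in heme breakdown, and Slc48a1 (chr15:97784365-97792692) encodes the transporter that moves heme out of the lysosome. Blvrb was at 14.5, 29.3 and 20.9 RPKM across the WT and 15.3, 30.8 and 19.6 RPKM across the DKI libraries of day 0. It was at 134, 267 and 303 RPKM across the WT and 180.0, 234 and 242 RPKM across the DKI libraries of day 3. On day 6 the values were 139, 239 and 120.0 RPKM across the WT and 187, 219 and 164 RPKM across the DKI libraries. Blvrb was among the 6 most abundant genes, and its WT and DKI values overlapped on both days. Slc48a1 was already expressed on day 0, at 19.8, 32 and 33.2 RPKM across the WT and 18.7, 33.6 and 31.2 RPKM across the DKI libraries of day 0. Its levels were 108, 144 and 184 RPKM across the WT and 95.3, 199.6 and 166 RPKM across the DKI libraries of day 3. They were 128, 179.6 and 106 RPKM across the WT and 163, 207 and 133 RPKM across the DKI libraries of day 6. Increases of Slc48a1 were 2.25 to 2.57, and differences were 0.05 ± 0.34 on day 3 and 0.29 ± 0.27 on day 6 (SE, n = 3 per group).

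Ptgs1 and Hvcn1 are also tied to known myeloid functions, as Ptgs1 encodes cyclooxygenase 1 and Hvcn1 the voltage-gated proton channel that sustains the oxidative burst. Ptgs1 (chr2:36216742-36258593) was at 6.42, 14.4 and 16 RPKM across the WT and 4.79, 9 and 14.4 RPKM across the DKI libraries of day 0. It was at 70.4, 108 and 106 RPKM across the WT and 50.01, 83.3 and 109 RPKM across the DKI libraries of day 3. The day 6 values were 39.4, 157 and 96.2 RPKM across the WT and 108, 160.4 and 81.1 RPKM across the DKI libraries. The WT libraries of day 6 alone spanned 39.4 to 157 RPKM, and the difference was 0.40 ± 0.52 (SE, n = 3 per group), or ± 0.37 with the replicate number as a block. Hvcn1 had means of 14.9 RPKM (WT) and 12.4 RPKM (DKI) on day 0 and 96.3 to 136 RPKM over the 4 MDC groups, and the DKI library was below its WT counterpart for all 3 numbers on both days. Kcnk13, a potassium channel, had 1.09 RPKM (WT) and 1.3 RPKM (DKI) on day 0 and 13.8 to 20.5 RPKM over the 4 MDC groups. Slc41a2, a magnesium transporter, had 0.285 RPKM (WT) and 0.281 RPKM (DKI) on day 0 and 14.4 to 17.9 RPKM over the 4 MDC groups.

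Growth factors and regulators of transcription made up 5 of the 43 genes. Pdgfa, a chain of platelet-derived growth factor, had 1.31 RPKM (WT) and 0.744 RPKM (DKI) on day 0 and 15.7 to 25.5 RPKM over the 4 MDC groups, and Hbegf, a ligand of the EGF receptor, had 0.209 RPKM (WT) and 0.164 RPKM (DKI) on day 0 and 4.83 to 5.41 RPKM over the 4 MDC groups. Of the 3 induced genes in a list of 35 cytokines and growth factors, the third, Ltb, was lower in DKI cells. Ahrr (chr13:74211118-74292331) encodes the repressor of the aryl hydrocarbon receptor and is itself a known target of that receptor. It was at 2.64, 3.72 and 0.383 RPKM across the WT and 3.16, 2.95 and 0.379 RPKM across the DKI libraries of day 0. Its levels were 23, 31 and 36.9 RPKM across the WT and 28.7, 28.4 and 37.1 RPKM across the DKI libraries of day 3. On day 6 they were 24.3, 29.2 and 16.8 RPKM across the WT and 19.5, 29.9 and 15.5 RPKM across the DKI libraries. Ahrr was kept in each of the 23 other settings, and its differences were 0.07 ± 0.21 on day 3 and -0.13 ± 0.30 on day 6 (SE, n = 3 per group). Etv5 (chr16:22381313-22439570), an ETS factor of the PEA3 family, was at 0.355, 0.328 and 0.426 RPKM across the WT and 0.269, 0.376 and 0.461 RPKM across the DKI libraries of day 0. It was at 17.5, 7.93 and 10.6 RPKM across the WT and 12.9, 13 and 15.2 RPKM across the DKI libraries of day 3. On day 6, Etv5 was at 12.1, 9.38 and 5.06 RPKM across the WT and 20.3, 10.2 and 8.23 RPKM across the DKI libraries, above WT in the DKI library of each number. Etv5 was the only induced gene among the 23 genes of a list of MAPK feedback and immediate early genes. The fifth gene was Batf2, a basic leucine zipper factor.

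Phlda3 and Zmat3 are known targets of p53. Phlda3, which limits AKT signaling, had 0.575 RPKM (WT) and 0.688 RPKM (DKI) on day 0 and 11.8 to 25.7 RPKM over the 4 MDC groups. Zmat3, an RNA-binding zinc finger protein, had 0.642 RPKM (WT) and 0.717 RPKM (DKI) on day 0 and 6.3 to 9.86 RPKM over the 4 MDC groups and was the gene nearest to the lower limit of induction, with a smallest increase of 2.03. Mov10 (2.04) and Stfa2 (2.05) followed. Just outside that limit were Ccng1 (1.98), encoding cyclin G1 and another known p53 target, Slc37a3 (1.95) and Hyal2 (1.94). The genes nearest to the other limit were Stfa2, Anxa4 and Plxna1 inside, with largest differences of 0.499, 0.496 and 0.494, and Creld1, Prune2 and Bcar3 outside, with 0.501, 0.511 and 0.514.

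Kinases, trafficking proteins and enzymes completed the group. Nek6 (chr2:38483863-38587490), a mitotic kinase, was at 6.09, 1.79 and 1.79 RPKM across the WT and 5.32, 2.23 and 1.89 RPKM across the DKI libraries of day 0. It was at 79.96, 96.8 and 119 RPKM across the WT and 60.7, 92.8 and 81.4 RPKM across the DKI libraries of day 3. The day 6 values were 72.1, 88.4 and 77.9 RPKM across the WT and 67.5, 87.2 and 79 RPKM across the DKI libraries. On day 3 the DKI library was below its WT counterpart for all 3 numbers, with a difference of -0.33 ± 0.23 (SE, n = 3 per group). On day 6 the 6 values of Nek6 lay between 67.5 and 88.4 RPKM, and the difference was -0.03 ± 0.17 (SE, n = 3 per group). Of the small GTPases, Rab19 had 1.1 RPKM (WT) and 0.787 RPKM (DKI) on day 0 and 13 to 14.7 RPKM over the 4 MDC groups and Rab13, which acts at cell junctions, had 1.74 RPKM (WT) and 2.01 RPKM (DKI) on day 0 and 12.6 to 16.2 RPKM over the 4 MDC groups. Snap47, a SNARE protein, had 0.94 RPKM (WT) and 0.787 RPKM (DKI) on day 0 and 6.72 to 9.1 RPKM over the 4 MDC groups. Prmt2, a protein arginine methyltransferase, had 0.999 RPKM (WT) and 0.969 RPKM (DKI) on day 0 and 8.84 to 11 RPKM over the 4 MDC groups, and the DKI library was below its WT counterpart for all 3 numbers on both days. B3galnt1, the globoside synthase, had 0.104 RPKM (WT) and 0.112 RPKM (DKI) on day 0 and 6.49 to 12.7 RPKM over the 4 MDC groups. Zdhhc14, a palmitoyltransferase, had 0.706 RPKM (WT) and 0.712 RPKM (DKI) on day 0 and 6.53 to 8.36 RPKM over the 4 MDC groups, and Pgpep1, a peptidase that removes pyroglutamate, had 0.883 RPKM (WT) and 0.778 RPKM (DKI) on day 0 and 7.29 to 8.42 RPKM over the 4 MDC groups.

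Stac2, an adaptor protein of calcium channels, had 0.263 RPKM (WT) and 0.213 RPKM (DKI) on day 0 and 17.1 to 23.3 RPKM over the 4 MDC groups. Eva1b, a membrane protein, had 1.25 RPKM (WT) and 1.6 RPKM (DKI) on day 0 and 21.1 to 26.1 RPKM over the 4 MDC groups. The RIKEN gene 5730409E04Rik had 0.562 RPKM (WT) and 0.368 RPKM (DKI) on day 0 and 5.28 to 7.52 RPKM over the 4 MDC groups. Its day 3 values were 5.09, 6.53 and 6.81 RPKM across the WT and 4.07, 5.73 and 6.04 RPKM across the DKI libraries. On day 6 they were 7.09, 7.25 and 8.23 RPKM across the WT and 4.71, 6.41 and 7.18 RPKM across the DKI libraries. The DKI library of this gene was below its WT counterpart for all 3 numbers on both days.

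The limit of 0.5 on the mean did not make the levels equal within their error. The median SE of the DKI minus WT difference was 0.34 on day 3 (range, 0.19 to 0.85) and 0.32 on day 6 (0.14 to 1.47), of similar size to the limit. The 95% interval of the difference stayed within 2-fold for 19 of the 43 genes on day 3, for 20 on day 6 and for 13 on both days, and within 1.5-fold for 2 and 6 genes. For the other 30 genes, a difference of 2-fold lay within the interval on at least one day. The replicate numbers pair the libraries, and with the number as a block in the limma fit the median SE fell to 0.25 on day 3 and 0.24 on day 6. The interval then stayed within 2-fold for 28 genes on day 3, for 30 on day 6 and for 23 on both days, and a 2-fold difference lay within it on at least one day for the other 20. With the block, the day 6 difference of P2ry14 was -0.25 ± 0.13 and that of Slc48a1 0.29 ± 0.15 (SE, 3 pairs). The blocked interval left out 0 for Hvcn1 on day 3 and for Tns1 (0.10 to 0.79) and Etv5 on day 6, which is given as a description because these differences were used by the rule. The spread of the members within groups was also wider than usual, with a median log2 SD of 0.55 in DKI and 0.38 in WT cells on day 3, against 0.28 and 0.19 over all expressed genes. WT and DKI values overlapped for all 43 genes on both days, while 36.3% of fitted genes had no overlap on day 3 and 37.2% on day 6. Since the rule fixes small differences, nothing can be read from this overlap. On day 3, 15 genes had a higher and 28 a lower mean in DKI cells (median, -0.16, against -0.11 over all fitted genes), and on day 6 the counts were 21 and 22 (median, -0.006, against -0.17).

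**Figure D3:**
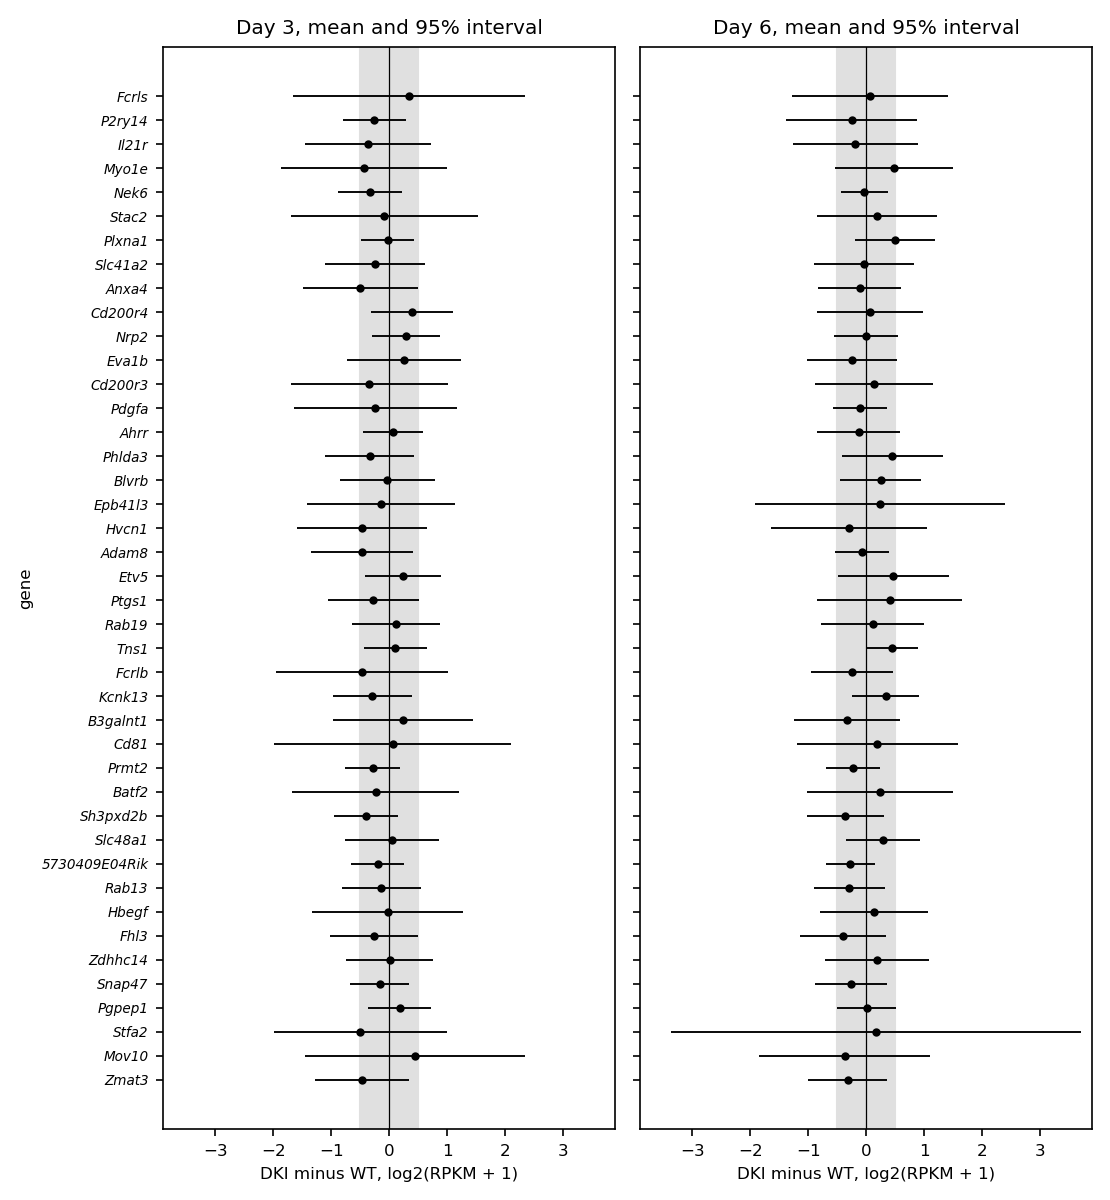
DKI minus WT difference in mean log2(RPKM + 1) on day 3 (left) and day 6 (right) for 42 of the 43 genes, with the 95% interval from 3 libraries per group. The grey band marks differences below 0.5, which chose the genes. All points lie in the band by construction, and most intervals reach outside it, for Stfa2 on day 6 from -3.36 to 3.71.

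The choice was repeated on 2 of the 3 replicate numbers, and the difference was then read in the number that had been left out. Leaving out number 1 chose 56 genes, of which 11 (19.6%) differed by less than 0.5 on both days in the libraries numbered 1. Leaving out number 2 chose 25 genes, of which 13 (52.0%) did so, and leaving out number 3 chose 44 genes, of which 12 (27.3%) did so. The share was 41.3%, 66.0% and 49.2% over all expressed genes. Over the other induced genes it was 4.79%, 13.9% and 6.59%, but these had been set apart by a difference of 0.5 or more in the numbers kept, so that a low share was largely built in. Single libraries per group enter these differences, which are noisier than means of 3. The MDC libraries numbered 1 carry the earlier year and include the DKI libraries with the high interferon sums. The expressed genes were not matched to the chosen genes in level or spread, so that these shares do not measure how well the rule holds. An increase of at least 2 in all 4 comparisons was seen in the left-out number for 21 of 56, 19 of 25 and 29 of 44 genes, against 1.82%, 2.51% and 1.95% of expressed genes.

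**Figure D4:**
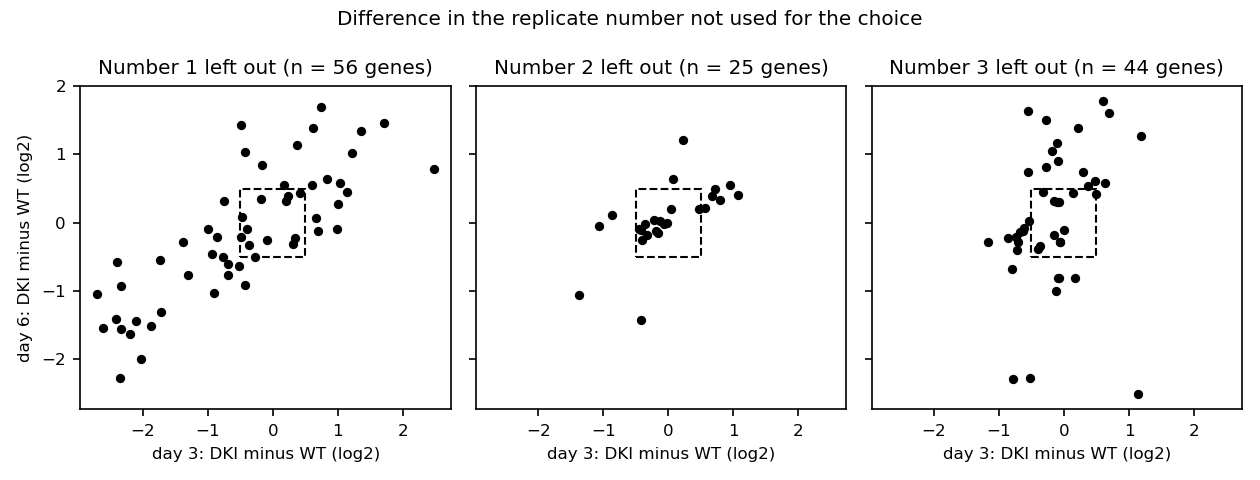
DKI minus WT difference in log2(RPKM + 1) on day 3 (horizontal) and day 6 (vertical) in the replicate number that was not used to choose the genes. Each point is a gene, and the dashed square marks differences below 0.5 on both days. The square holds 11 of 56 genes with number 1 left out, 13 of 25 with number 2 left out and 12 of 44 with number 3 left out.

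The DKI library numbered 1 of day 3 was the farthest of its group from the middle library for 27 of the 43 genes, a share close to the 62.3% of expressed genes, and it was the lowest of the 3 for 25 genes. Without the DKI libraries numbered 1 of days 3 and 6, 51 genes passed the rule, and 30 of the 43 were among them. Of the 13 genes that were lost, 12 had a difference of 0.5 or more on a day, 6 toward lower and 6 toward higher levels in DKI cells. They were Fcrls, Il21r, Myo1e, Stac2, Plxna1, Cd200r4, Fcrlb, B3galnt1, Cd81, Batf2, Zdhhc14, Stfa2 and Mov10. Without all 4 MDC libraries numbered 1, which carry the earlier year, 46 genes passed, and 25 of the 43 were among them. The libraries of the earlier year hold 1 sample per group, so that no spread can be given within them.

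Mov10, an RNA helicase, and Batf2 are known interferon-inducible genes. Mov10 was at 1.05, 1.57 and 1.67 RPKM across the WT and 0.989, 1.84 and 1.71 RPKM across the DKI libraries of day 0. It was at 10.2, 14.9 and 4.52 RPKM across the WT and 43.6, 8.93 and 4.66 RPKM across the DKI libraries of day 3. On day 6, Mov10 was at 10.4, 11.2 and 23.7 RPKM across the WT and 29.1, 5.89 and 6.62 RPKM across the DKI libraries. The DKI libraries numbered 1, with the high summed interferon response, held the highest values of Mov10 on both days. Without them the difference for Mov10 moved to -0.41 on day 3 (from 0.45) and to -1.06 on day 6 (from -0.37), and its smallest increase fell from 2.04 to 1.54. Batf2 was at 0.0867, 0.293 and 0.783 RPKM across the WT and 0.188, 0.338 and 0.888 RPKM across the DKI libraries of day 0. It was at 11.8, 11.5 and 11.1 RPKM across the WT and 28.9, 4.98 and 5.71 RPKM across the DKI libraries of day 3. On day 6, Batf2 was at 8.14, 4.11 and 5.46 RPKM across the WT and 17.3, 3.94 and 4.53 RPKM across the DKI libraries. The pattern of Batf2 was like that of Mov10, and its difference moved to -0.98 on day 3 (from -0.23) and to -0.36 on day 6 (from 0.24). Levels of Mov10 and the interferon sum did not go together in every library. The WT library numbered 3 of day 6 had 23.7 RPKM of Mov10 with a sum of 360 RPKM. The DKI library numbered 2 of day 3 had 8.93 RPKM of Mov10 with a sum of 1182 RPKM. The part of the interferon response in the values of Mov10 and Batf2 was not tested. None of the 24 genes of the interferon list passed the rule of induction.

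Stfa2, which encodes a stefin that inhibits cysteine proteases and has near-identical copies in the genome, so that its level is uncertain, was at 0.112, 0 and 0 RPKM across the WT and 0.182, 0.11 and 0 RPKM across the DKI libraries of day 0. It was at 3.08, 13.8 and 3.31 RPKM across the WT and 4.57, 6.01 and 1.37 RPKM across the DKI libraries of day 3. On day 6, Stfa2 was at 4.53, 13.4 and 3.67 RPKM across the WT and 77.8, 5.33 and 0.0683 RPKM across the DKI libraries. One DKI library of day 6 thus lay far above and another within the range of monocytes, and the mean similarity of Stfa2 describes no single library. The summed level of 6 neutrophil markers was 507 RPKM in the DKI library numbered 1 of day 6 and 6.55 to 10.5 RPKM in the other 2. It was also high in the WT library numbered 2 of day 3 (515 RPKM), which held the highest Stfa2 value of that day, in the DKI libraries numbered 1 and 2 of day 3 (401 and 493 RPKM) and in the WT library numbered 1 of day 6 (165 RPKM), against 2.63 to 25.4 RPKM in the other 7 MDC libraries. These levels did not go together in every library, as the WT library numbered 2 of day 6 had 13.4 RPKM of Stfa2 with a marker sum of 10.9 RPKM, and the DKI libraries numbered 1 and 2 of day 3 had 4.57 and 6.01 RPKM of Stfa2 with their high sums. The same markers were at 859 to 1225 RPKM on day 0, where Stfa2 was at most 0.182 RPKM. The part of these markers in the levels of Stfa2 and of the other members was not tested.

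The change from day 3 to day 6 within a genotype and the difference between genotypes on day 0 were not criteria of the rule, but they are made of the same group means, so that the values of the 43 genes in them are not independent of the choice and are given as descriptions. In a limma fit over 9613 genes in WT and 9540 genes in DKI cells, 0 genes were called between day 6 and day 3 in either genotype at an adjusted p under 0.05 and a fold above 1.5 (0% of genes tested), and none of the 43. At an unadjusted p under 0.05 there were 722 genes in WT (7.51%) and 93 in DKI cells (0.975%), with 1 of the 43 in each. In WT this was Batf2, with a day 6 minus day 3 difference of -0.89 (95% interval, -1.41 to -0.38). In DKI cells it was Phlda3, with a difference of 1.01 (0.10 to 1.92). Blocking on the number put 12.7% of genes in WT and 4.94% in DKI cells at an unadjusted p under 0.05, with 4 of the 43 in each and again 0 called genes. These were Batf2, Myo1e, Tns1 and Pdgfa in WT, all with lower means on day 6, and in DKI cells Batf2, with a lower mean, and Cd81, Cd200r3 and Phlda3, with higher means. The libraries numbered 3 were not clearly paired between days, which limits this blocked fit. Cd81 had a mean that was higher on day 6 in both genotypes, by 0.69 in WT and 0.82 in DKI cells.

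On day 0, 15 of the 43 genes were expressed highly enough to be fitted, and 0 of 9179 fitted genes were called between DKI and WT monocytes (0%), with 44 at an unadjusted p under 0.05 (0.479%) and none of the 15 among them, by limma. Blocking on the number, the fit called 0 genes and put 3.83% at an unadjusted p under 0.05, among them 3 of the 15. Adam8 had a DKI minus WT difference of 0.41, Ptgs1 one of -0.38 and Hvcn1 one of -0.22, each with 1 direction in all 3 pairs. The day 0 difference of the 43 genes lay between -0.39 and 0.41. Adam8 was the highest, with 52.3, 38.9 and 5.3 RPKM across the WT and 55.7, 60.7 and 8.04 RPKM across the DKI libraries of day 0, and library 3 was the lowest in both genotypes. Pdgfa was the lowest, with 1.12, 0.858 and 1.96 RPKM across the WT and 0.833, 1 and 0.399 RPKM across the DKI libraries of day 0.

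**Figure D5:**
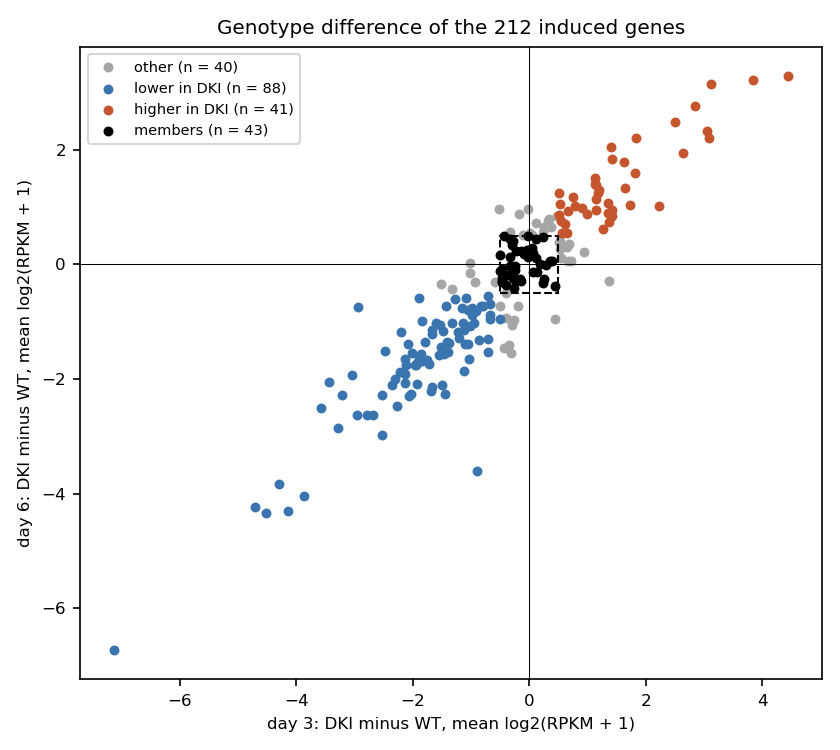
DKI minus WT difference in mean log2(RPKM + 1) on day 3 (horizontal) and day 6 (vertical) for the 212 induced genes, coloured by how they were grouped. The 43 genes described here fill the dashed square, which the rule fixes, between 88 genes lower in DKI on both days and 41 genes higher in DKI on both days.

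Among the other 169 induced genes, 88 were lower in DKI cells by at least 0.5 on both days, 41 were higher and 40 were neither. The 43 genes had a lower median level in MDCs, at 19.5 RPKM, than the genes induced lower (38.8 RPKM) or higher (87.5 RPKM) in DKI cells. The median increase on day 3 was 3.16 in WT and 2.98 in DKI cells for the 43 genes, 4.81 and 3.07 for the genes induced lower in DKI, and 3.02 and 4.54 for those induced higher, where the gap between genotypes is built in by the grouping. Of 28 lists of genes by function, 8 held a member, and 12 of the 71 induced list genes were members. From a list of 19 STAT5 feedback and survival targets, 5 genes were induced, namely Ccnd1, Ccnd2, Cish, Socs1 and Socs2. None of the 5 was among the 43, and 4 of them were lower in DKI on both days. Of the MHC class II and co-stimulation genes, 9 of 20 were induced, none was among the 43 and 8 were lower in DKI. Lists with 1 member and several other induced genes were those of proteases and matrix genes (Adam8 of 4 induced) and of prostaglandins and leukotrienes (Ptgs1 of 4 induced). The GM-CSF receptor chain Csf2rb, for comparison, had a day 3 mean of 674 ± 85.8 (WT) and 442 ± 154 RPKM (DKI; SD, n = 3), and its near copy Csf2rb2 one of 413 ± 41.5 and 218 ± 24.5 RPKM. Csf2ra, the alpha chain, had 203 ± 19.3 (WT) and 128 ± 50.03 RPKM (DKI), and Stat5b had 21.7 ± 4.18 and 14.6 ± 1.97 RPKM on that day. The DKI mean of Csf2ra on day 3 held a low value of 70.7 RPKM in library 1, against 161 and 153 RPKM in the others, and on day 6 Csf2ra had 175 ± 49 (WT) and 175 ± 60.7 RPKM (DKI). That of Csf2rb on day 3 also held a low value of 271 RPKM in library 1, against 568 and 487 RPKM in the others. On day 6 Csf2rb had 585 ± 55.2 (WT) and 365 ± 89.8 RPKM (DKI).

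The 43 genes lay on 18 chromosomes, with at most 6 on one. Among the 9 genes that kept their place whichever single library was left out were Nek6, Nrp2, Ahrr, Rab19, Prmt2, Slc48a1, 5730409E04Rik and Rab13. Mov10 was kept in 9 and Stfa2 in 10 of these 18 settings, the fewest of the 43 genes.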

How the data were processed

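RNA-seq of WT and DKI mouse monocytes and MDCs (6 groups of 3 libraries) was analysed. The authors mapped single-end reads (Subread, mm10), summed them per RefSeq gene (featureCounts) and deposited RPKM values per library, which hold no read totals. Versions and strand setting are not given in the sources used here. Symbols and positions were taken from RefSeq on the same build (20082 identifiers matched, 216 did not). Whether same-group libraries came from separate animals is given only as combined independent experiments, so p-values measure the spread between these samples.

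Values were analysed as log2(RPKM + 1), which understates the change of low genes. The members, the gene lists and the named genes were chosen with earlier results of these data known. The named genes were the 12 members with the largest smallest increase, the 10 most abundant, up to 4 per functional list, any called between days 3 and 6 or on day 0 (none were), those nearest to each limit, and STAT5 and GM-CSF receptor genes. The other members are named for completeness, except 1 that is not reported here by name and is left out of the plots by gene. The 31 members in no list were grouped by role after their values were seen.

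A gene was fitted when its mean exceeded 2 RPKM in a compared group, with limma 3.58.1 (lmFit, eBayes with trend, R 4.3.3), with Benjamini-Hochberg adjustment, after testing the fit on simulated data. Intervals of DKI minus WT are 95% intervals of a difference between 2 means of 3 libraries. Depth was estimated from the value of 1 read in receptor genes. Same-numbered libraries deviated together (correlations of 0.12 to 0.74 between days, and between genotypes of 0.69 to 0.87 on day 0 and 0.16 to 0.41 on days 3 and 6), and the number was taken as a pairing. Between days this was not clear for number 3. Day 3 library 3 correlated more with day 6 library 2 than with day 6 library 3, in WT (0.145 against 0.125) and DKI cells (0.356 against 0.320). The share of the promoter search covers 34 of 43 members. Alternatives were other pseudocounts, scalings, limits and filters, the replicate block, and leaving out libraries. Figures were made in Python 3.11.15 with pandas 2.3.3, numpy 2.4.6 and matplotlib 3.10.9.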

Additional observations from a re-analysis of the deposited data

How the results depend on the processing

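The number of genes that passed the rule was 43. It was 99 with a pseudocount of 0.1 (39 shared with the 43), 97 with an induction of at least 1.5, 12 with an induction of at least 3 and 13 with a difference below 0.25. A looser or stricter limit admits more or fewer genes by construction, whereas the smaller pseudocount rescales low values, and 4 of the 43 were lost with it. Leaving out a single library gave 31 to 47 genes, and leaving out a replicate number in all groups gave 25 to 56 genes, with 25 for number 2, and 24, 21 and 32 of the 43 were kept without numbers 1, 2 and 3. It was 62 with a pseudocount of 0.5, 36 with quantile normalization, 39 with group medians (24 shared) and 43 with median centring (36 shared). Among settings chosen after seeing the data, leaving out the DKI libraries numbered 1 of days 3 and 6 gave 51 genes, and leaving out the 4 MDC libraries numbered 1 gave 46. With a replicate block, 0 genes were called in the 3 tested comparisons, as without it, with 1221, 471 and 352 genes at an unadjusted p under 0.05. A fit of all 18 libraries called 16 genes between day 6 and day 3 in WT and 6 between genotypes on day 0, none of them among the 43, and leaving out libraries one at a time gave 0 to 1 called genes in WT, the 1 being without the WT library numbered 2 of day 6. The cause of these calls was not tested. The interval of DKI minus WT stayed within 2-fold on both days for 13 members, and for 23 with a replicate block, a setting added after seeing the data. The files hold no read totals, so that counting error was not separated from the spread between libraries.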

Other observations

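Further motifs were searched in the same promoter windows, on both strands, and give counts of letter matches only. A C/EBP motif (TTGCNNAA, which C/EBP factors of myeloid cells bind) was present in 5 of the 34 matched genes (14.7%), against 10.3% of all genes with a window, 9.52% of the genes induced lower in DKI and 3.03% of those induced higher. An antioxidant response motif (TGACNNNGC) was present in 6 (17.6%), against 12.5% of all genes, 9.52% of the genes induced lower and 21.2% of those induced higher. An AP-1 motif (TGANTCA) was present in 1 gene (2.94%), P2ry14, against 7.33% of all genes, 20.6% of the genes induced lower and 9.09% of those induced higher. The interferon-stimulated response element, searched as its core on either strand, was present in 1 gene, Rab19 (2.94%), against 3.49% of all genes, 4.76% of the genes induced lower and 6.06% of those induced higher. The strict GAS form (TTCCNGGAA, which is part of the wider GAS motif) and the CLEAR motif of lysosomal genes (TCACGTGA) were present in none of the 34 genes, against 1.22% and 1.23% of all genes, 6.35% and 1.59% of the genes induced lower, and 3.03% and 0% of those induced higher. The windows held a median of 12.5 CpG dinucleotides, against 11 over all windows, 5 for the genes induced lower in DKI and 7 for the genes induced higher.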
